A study of Mus musculus with 6 samples.

Results

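Intraflagellar transport (IFT), BBSome and manchette genes build and supply the sperm tail and shape the sperm head. The 35 genes described here were chosen by name as subunits of these machines: 6 of the IFT-A complex, 16 of IFT-B, 7 of the BBSome, 4 of the manchette and 2 kinesin motor subunits. All 35 were found among the 53700 Ensembl genes listed in the count tables, and all 35 passed the filter on low counts. RNA came from whole testes of mice at postnatal day 45, with 3 mice labelled Msl3 wild type (WT) and 3 labelled conditional knockout (cKO) of a floxed Msl3 allele, 1 library for each mouse. Both groups carry the same strain label, Msl3em1Forni/C57BL/6J. The Cre line that would delete the floxed part, its cell type and the deleted exons are not given in the sources used here. Msl3 encodes a subunit of the male-specific lethal complex, a histone acetyltransferase complex built around Kat8. The study asked whether sperm formation needs it.

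In IFT, trains of the IFT-B complex are carried toward the tip of a growing cilium or flagellum by kinesin motors, and trains return with IFT-A and cytoplasmic dynein. The BBSome is an adaptor that couples membrane proteins to these trains. In spermatids IFT proteins also travel along the manchette, a transient skirt of microtubules that surrounds the nucleus while the head elongates and the tail grows. In mice, loss of several of these proteins, Ift20, Ift88, Hook1 and Rimbp3 among them, leads to misshapen or immotile sperm.

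Many ciliary genes carry in their promoters an X-box, the inverted repeat bound by transcription factors of the RFX family, and the members were searched for it because it is a feature that the choice by name did not use. The search took the letters GTNNCC followed after 0 to 3 bases by GGNNAC, which reads the same on both strands, in windows from 250 bases before to 50 bases after a gene's start (RefSeq, GRCm38.p6). Windows were found for 30 of the 35 members, and 8 of them (26.7%) held the pattern, against 3.86% of all 32851 promoter windows of the same length. Among 48 windows of 42 other genes of the same pathways, 8 (16.7%) held it. With exactly 2 bases between the arms the shares were 23.3% of the members', 1.88% of all and 12.5% of the other pathway windows. The windows of all genes were not matched to the members by GC content or expression. The matching stretches, picked by the pattern itself, are shown 5′ to 3′ on the gene's strand. Capitals mark the pattern, and up to 20 bases on each side are in lower case.

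Bbs1, chr19:4906593-4906646, minus strand: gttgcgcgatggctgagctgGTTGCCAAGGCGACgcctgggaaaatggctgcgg
Bbs4, chr9:59353459-59353505, minus strand: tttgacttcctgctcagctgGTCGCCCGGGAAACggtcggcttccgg
Bbs7, chr3:36613477-36613530, minus strand: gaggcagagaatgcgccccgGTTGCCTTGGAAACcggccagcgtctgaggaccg
Ift22, first, chr5:136908067-136908120, plus strand: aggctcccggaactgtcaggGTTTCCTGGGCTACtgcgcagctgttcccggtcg
Ift22, second, chr5:136908097-136908150, plus strand: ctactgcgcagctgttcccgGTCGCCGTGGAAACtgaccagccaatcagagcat
Ift57, first, chr16:49699187-49699240, plus strand: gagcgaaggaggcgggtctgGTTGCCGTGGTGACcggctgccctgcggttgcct
Ift57, second, chr16:49699214-49699266, plus strand: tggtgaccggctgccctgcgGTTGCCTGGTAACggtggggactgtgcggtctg
Ttc26, chr6:38381471-38381524, plus strand: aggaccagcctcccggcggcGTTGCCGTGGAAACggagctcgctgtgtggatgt
Wdr19, chr5:65199642-65199695, plus strand: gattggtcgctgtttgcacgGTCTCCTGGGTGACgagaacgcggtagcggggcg
Spef2, chr15:9748826-9748880, minus strand: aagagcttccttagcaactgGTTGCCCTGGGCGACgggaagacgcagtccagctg

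Of the 7 BBSome members 3 held the pattern, as did 3 of 13 IFT-B, 1 of 5 IFT-A and 1 of 3 manchette members with a window, and neither kinesin subunit did. Ift22 and Ift57 each held 2 matches. The match of Ttc26 began 33 bases before the start site and that of Wdr19 34 bases before it. The matches of Bbs1, Bbs4 and Spef2 lay after the start site. They began at bases 2, 24 and 9, with the start site as base 1. A match is a description of the letters, not evidence of binding. The 8 members with the pattern had a median log2 fold change between the groups of 0.073, and the 22 without it 0.037, and their ranges overlapped, from -0.12 to 0.28 and from -0.19 to 0.27.

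The 6 libraries held from 56991431 to 73766444 reads assigned to genes, and a member had from 264 to 48501 reads in a library. Levels are CPM, reads of a gene relative to the TMM-scaled size of the library. The targeted gene gave no check on the labels. Msl3 had 16.0, 18.9 and 15.9 CPM in WT 1, 2 and 3 and 16.0, 14.8 and 15.8 CPM in cKO 1, 2 and 3, with a log2 fold change of -0.12 (SE 0.088, edgeR adjusted p 0.551) that was -0.039 without WT 2. Counts cover all exons of Msl3, so a deletion of some exons need not lower them, and WT and cKO below mean the labels. Over all genes tested, 4 of 21902 (0.0183%) passed an edgeR quasi-likelihood test with Benjamini-Hochberg adjustment at 0.05. Libraries within a group are separate mice.

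No member passed that test: 0 of 35, against 0.0183% of all genes, with adjusted p from 0.276 to 0.992. At an unadjusted p under 0.05 there were 9 members higher in cKO, against 7.33% of all genes tested, and 1 lower, against 6.54%. The groups did not overlap in 10 members that were higher in cKO (10.05% of all genes tested) and in 3 that were lower (8.85%). The members' median log2 fold change was 0.054, ranging from -0.19 for Ift20 to 0.28 for Spef2, beside a median of 0.00311 over all genes tested. The 95% limits lay within 25% of the WT level for 26 of the 35 members. The lowest limit was 78.2% of WT, for Ift20, and the highest 139.3%, for Spef2. DESeq2, another count test, also called 0 of the 34 members for which it gave an adjusted p, against 1.78% of the 11711 genes that had one. Its lowest adjusted p was 0.0528, for Traf3ip1. In whole tissue, fewer cells of a type and less RNA in each cell cannot be told apart.

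**Figure D1:**
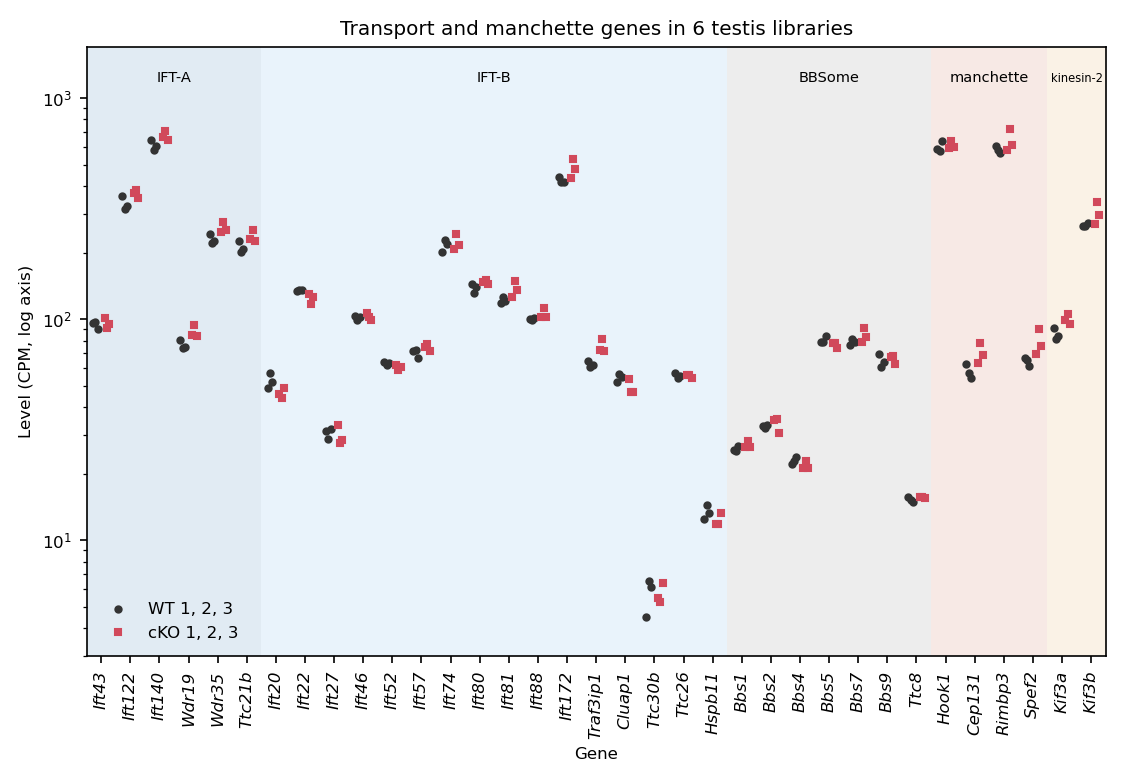
Level of each of the 35 genes in each library, in CPM on a log axis; black circles are the 3 WT libraries, red squares the 3 cKO libraries, and shading marks the complexes. The libraries of a gene lie close together beside the spread between genes, which runs from 5.73 CPM for Ttc30b to 612.2 CPM for Ift140 in WT.

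Levels were compared between genes only after division by the merged length of their exons, as CPM per kilobase in the WT libraries. On that scale 34 of the 35 members lay above the median of all genes tested, 2.42, and the members' own median was 21.6. Rimbp3, a manchette protein that binds Hook1, was highest at 108.6 ± 3.72 (SD, n = 3). It was followed by Ift74 at 81.4 ± 5.46 (SD, n = 3), Ift140 at 73.5 ± 4.09 (SD, n = 3), Hook1 at 72.2 ± 3.87 (SD, n = 3) and Ift172 at 64.1 ± 1.90 (SD, n = 3). The spreads of Ift140 and Hook1 cover one another. The BBSome genes had the lowest median of the 5 groups, 9.85, against 21.2 for IFT-B, 31.9 for IFT-A, 35.5 for the kinesin subunits and 43.6 for the manchette genes. Bbs5 reached 33.0 ± 1.21 (SD, n = 3), but Bbs1, Bbs4 and Ttc8 lay at 3.38, 3.80 and 4.04. Merged exon length counts every annotated exon, used in testis or not, so it lowers the value of genes with long unused exons.

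IFT-A, the complex needed for return transport and for entry of membrane proteins, had all 6 members above zero, with a median log2 fold change of 0.16. Over all genes tested, 11102 of 21902 were above zero. The core subunit Wdr19 (ENSMUSG00000037890, chr5:65199696-65260415) had 80.3, 73.9 and 74.5 CPM in WT 1 to 3 and 84.4, 94.4 and 83.9 CPM in cKO 1 to 3. All cKO libraries lay above all WT libraries, and cKO 2 was the highest. The difference was 0.20 on the log2 scale (SE 0.072, edgeR adjusted p 0.306).

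The peripheral subunit Wdr35 had 241, 222 and 225 CPM in WT and 248, 276 and 252 CPM in cKO, again without overlap (log2 fold change 0.17, edgeR adjusted p 0.315). Ttc21b, another peripheral subunit, had 225, 202 and 209 CPM in WT and 230.5, 254 and 227 CPM in cKO (log2 fold change 0.16, edgeR adjusted p 0.349). For these 2 genes WT 1 came within a few percent of the lowest cKO library, so the separation was narrow. The core subunits Ift122 and Ift140 had log2 fold changes of 0.15 and 0.14 with overlapping groups. Ift43, the smallest IFT-A subunit, was nearly level at 0.026 (SE 0.068), with 95% limits of -0.12 and 0.17.

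The summed level of the 6 IFT-A genes was 1649, 1489 and 1528 CPM in WT and 1700, 1805 and 1660 CPM in cKO. The groups did not overlap, but WT 1 and cKO 3 were 10.97 CPM apart, less than the SD of 83.1 CPM within WT. The deviations of the 6 genes from their own means were alike: 5 of the 6 were lowest in WT 2, and 5 of the 6 were highest in cKO 2. Over all 21902 genes tested, 5171 were lowest in WT 2 and 5261 were highest in cKO 2.

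IFT-B, the complex of outward transport, was split, with 8 members above and 8 below zero and a median log2 fold change of 0.00257 (-0.026 when scaled by library totals alone). The summed level of the 16 genes, which the abundant ones such as Ift172 weigh most in, was 1644, 1649 and 1639 CPM in WT and 1670.5, 1810 and 1702 CPM in cKO. These sums did not overlap, with a gap of 21.1 CPM against an SD of 5.10 within WT and 73.1 within cKO, and cKO 2 was the highest. Traf3ip1 (ENSMUSG00000034292, chr1:91494647-91529307), a microtubule-binding IFT-B subunit, had the lowest p of the 35 members. Its level was 64.5, 60.4 and 61.7 CPM in WT and 72.1, 81.0 and 71.9 CPM in cKO. The groups were separated by 7.44 CPM, more than the SD within either group. The difference was 0.27 on the log2 scale (SE 0.071), the unadjusted edgeR p 0.00256 and the adjusted p 0.276, at rank 197 of all genes tested. Reads on the other strand made up 3.62% of its strand-assigned reads, the highest share of any member.

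Of the Ift74 and Ift81 pair, which binds tubulin cargo, Ift81 had 119, 126 and 121 CPM in WT and 126, 149 and 135 CPM in cKO (log2 fold change 0.17, edgeR adjusted p 0.346). Its partner Ift74 had overlapping groups and a log2 fold change of 0.038 (SE 0.079). Ift172, the largest IFT-B subunit, had 439, 417 and 417 CPM in WT and 436, 528 and 479 CPM in cKO, with cKO 1 inside the WT range (log2 fold change 0.18, edgeR adjusted p 0.335, and 0.11 without cKO 2). Ift80 and Ift88 did not overlap between groups, at log2 fold changes of 0.091 and 0.078, both with 95% limits that include zero. Ift57 stood at 0.092 with overlap.

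On the other side, Ift20 (ENSMUSG00000001105, chr11:78536361-78541737), which links IFT-B to the Golgi, had 48.9, 57.0 and 52.0 CPM in WT and 45.9, 43.9 and 48.8 CPM in cKO. The closest libraries, WT 1 and cKO 3, differed by 0.112 CPM. The difference was -0.19 on the log2 scale (SE 0.076, unadjusted edgeR p 0.0297, adjusted p 0.319). Ift22, a small GTPase-like subunit, had 134, 136 and 135 CPM in WT and 130.2, 117 and 126 CPM in cKO (log2 fold change -0.12, edgeR adjusted p 0.446). The Ift27 and Hspb11 pair, which helps the BBSome leave cilia, stood at -0.042 and -0.12 with overlap. Cluap1 stood at -0.14 and Ift52 at -0.060, both with overlap, and Ift46 and Ttc26 at 0.0096 and -0.0072.

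Ttc30b was the lowest member, at 4.49, 6.53 and 6.16 CPM in WT and 5.46, 5.27 and 6.44 CPM in cKO, and its log2 fold change was -0.0044 (SE 0.14). Its near-identical neighbours Ttc30a1 and Ttc30a2 carried more reads, 32.6 ± 1.81 and 127.7 ± 3.20 CPM (SD, n = 3) in WT. Of the 31-base words of Ttc30b, 38.7% also occur in Ttc30a2, so reads shared by the copies are lost to the counts and the level of Ttc30b is uncertain. Cluap1 has another limit. Of its words, 36.1% occur in other genes and 20.7% in Gm20695, which overlaps 510 bases of its exons on the same strand. Reads in exons of both genes belong to no single gene and were left out.

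The BBSome members lay close to level. Their median log2 fold change was 0.035, the range ran from -0.079 for Bbs4 to 0.099 for Bbs7, and no member had an unadjusted p under 0.05. Bbs5 alone had groups that did not overlap, with 79.0, 78.7 and 84.0 CPM in WT and 77.8, 77.8 and 73.8 CPM in cKO (log2 fold change -0.075, SE 0.065). For all 7, Bbs1, Bbs2 and Bbs9 included, the 95% limits lay within 25% of the WT level. The narrowest spread was that of Ttc8, at 15.7, 15.3 and 14.9 CPM in WT and 15.8, 15.7 and 15.5 CPM in cKO.

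The manchette members included the largest differences. Spef2 (ENSMUSG00000072663, chr15:9578193-9748868), a tail protein that binds Ift20 and is present on the manchette, had 66.8, 65.4 and 61.7 CPM in WT and 69.6, 90.3 and 75.5 CPM in cKO. The WT libraries were close together, cKO 1 lay just above them, and cKO 2 stood well above the rest. The difference was 0.28 on the log2 scale (SE 0.091, edgeR adjusted p 0.290). Cep131 (ENSMUSG00000039781, chr11:120064430-120086827), a centrosomal protein needed for sperm tails, had 62.6, 57.1 and 54.0 CPM in WT and 63.5, 77.6 and 68.7 CPM in cKO. The difference was 0.27 on the log2 scale (SE 0.086, edgeR adjusted p 0.288).

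Spef2 and Cep131 passed only under other settings. Without cKO 1 the log2 fold changes were 0.36 for Spef2 (edgeR adjusted p 0.0385) and 0.34 for Cep131 (0.04998), in a fit that called 628 of 22255 genes (2.82%). Without cKO 2 they were 0.17 and 0.19, each with an adjusted p of 0.584. Without a filter on low counts Spef2 passed (adjusted p 0.0478), in a fit that called 757 of 36605 genes (2.07%). Rimbp3 and its partner Hook1 overlapped between the groups, at log2 fold changes of 0.13 (SE 0.083) and 0.028 (SE 0.067). Rimbp3 had 604, 584 and 564 CPM in WT and 581, 722 and 612 CPM in cKO, with only cKO 2 far from the others. Without cKO 2 the log2 fold change of Rimbp3 was 0.031.

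The motor subunits Kif3a and Kif3b pull the trains outward together with Kifap3. Kif3a (ENSMUSG00000018395, chr11:53567379-53601967) had 91.0, 81.5 and 83.6 CPM in WT and 98.9, 105 and 95.4 CPM in cKO, without overlap (log2 fold change 0.23, SE 0.071, edgeR adjusted p 0.288). Kif3b had 262, 264 and 271 CPM in WT and 269, 337 and 295 CPM in cKO, with cKO 1 inside the WT range (log2 fold change 0.18, edgeR adjusted p 0.368). Without cKO 2 the log2 fold change of Kif3b was 0.084. The summed level of both subunits was 353, 345 and 355 CPM in WT and 368, 443 and 390 CPM in cKO, without overlap. The sums of the manchette and BBSome members did overlap. For the manchette members they ran from 1283 to 1321 CPM in WT and from 1307 to 1529 CPM in cKO. For the BBSome members they ran from 316 to 326 CPM in WT and from 313 to 339 CPM in cKO. Kifap3, which is no member, had a log2 fold change of -0.015 (SE 0.066).

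**Figure D2:**
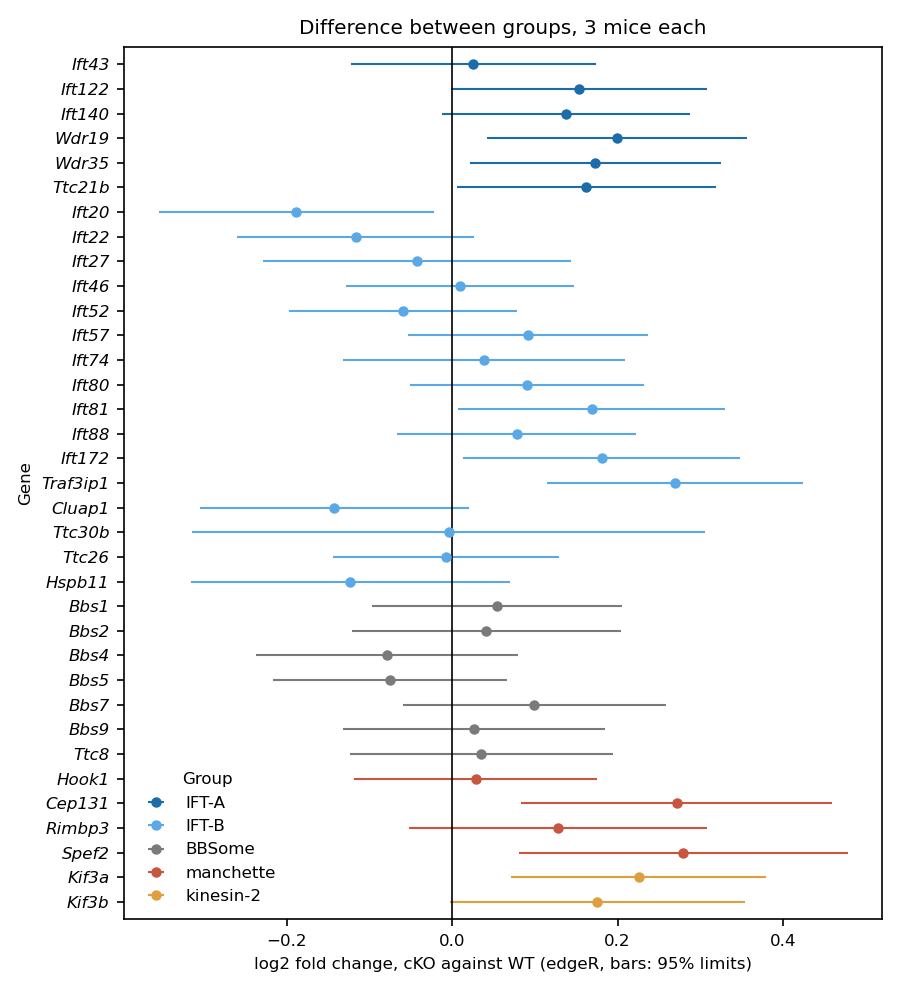
The log2 fold change of each gene in cKO against WT (edgeR, 3 mice in each group), with bars for the 95% limits before adjustment and colours for the complexes. The 6 IFT-A, 4 manchette and 2 kinesin genes lie above zero and the 16 IFT-B genes on both sides; no gene passed after adjustment.

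The differences were carried unevenly by the libraries. cKO 2 held the highest of the 6 values in 21 of 35 members, and in 5261 of 21902 genes tested. Among the 21 were all 10 members whose groups did not overlap with cKO higher. In such genes the highest library must be a cKO library. The share of cKO 2 over all genes of that kind was not counted. The members' median deviation from the gene's own mean was -0.012, -0.052 and -0.029 in WT 1, 2 and 3, and 0.013, 0.090 and 0.0059 in cKO 1, 2 and 3. In the manchette group it was 0.27 in cKO 2, against -0.029 in cKO 1 and 0.048 in cKO 3. The median log2 fold change of the manchette members was 0.20 with all libraries and 0.099 without cKO 2. The number of members at an unadjusted p under 0.05, 10 with all libraries, was 4 without cKO 2, 5 without WT 2, 2 without WT 3 and 14 without cKO 1. Over all genes tested that share moved too, from 13.9% to 8.44%, 7.35%, 6.36% and 17.1%. The members varied little within a group: the median coefficient of variation was 4.12% in WT and 5.73% in cKO, beside 8.07% and 9.27% over all genes tested, most of which had fewer reads.

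**Figure D3:**
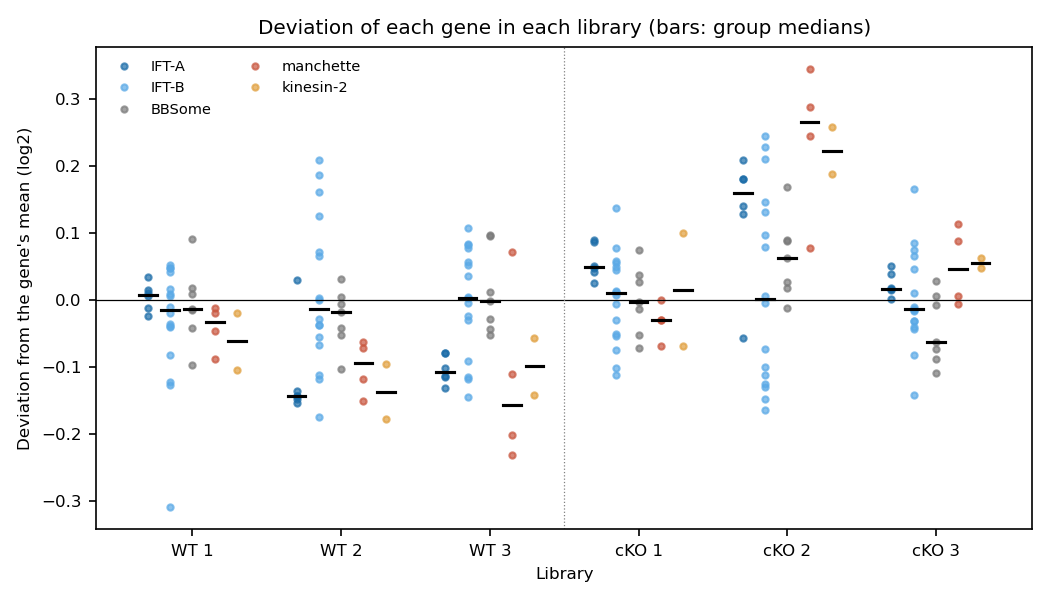
Deviation of log2 CPM from each gene's mean over the 6 libraries, by library; points are genes, colours are complexes and black bars are the medians of a complex. In cKO 2 the manchette, kinesin and IFT-A genes lie highest, and WT 2 and WT 3 hold the lowest IFT-A values.

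Gene length moved with these differences. Across all 21851 genes tested with a known length and GC content, the log2 fold change had a Spearman correlation of 0.42 with merged exon length. Across the 35 members it was 0.56, and both are descriptions, since all genes share the same 6 libraries. The members are longer than most genes, with a median of 4673 bases of exon against 3267. With limits set after the values were seen, the 7 members over 8 kb were all above zero (median 0.15), as were 80.6% of all genes of that length (median 0.13). Between 4 and 8 kb it was 10 of 12 members (median 0.089) and 65.4% of all genes (median 0.054). Up to 4 kb it was 8 of 16 members (median 0.011) and 37.4% of all genes (median -0.056). The IFT-A genes other than Ift43 span 7273 to 11278 bases, while Ift20 with 1525 is the shortest member.

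After a correction for exon length and GC content in each library, 22 members stood above zero instead of 25, and 4 instead of 10 had an unadjusted p under 0.05 (9.36% of all genes). The median over all 35 members was 0.044 instead of 0.054. In IFT-A the median was more than 1.5 times smaller, at 0.073 instead of 0.16. So it was in the manchette group, at 0.11 instead of 0.20, and in the BBSome, at 0.016 instead of 0.035. Ift122 went from 0.15 to -0.00254. Kif3a at 0.23, Traf3ip1 at 0.26 and Spef2 at 0.21 kept most of their difference, and none passed (adjusted p 0.398, 0.370 and 0.446). Whether RNA integrity or library preparation has a part in the relation with length was not tested.

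**Figure D4:**
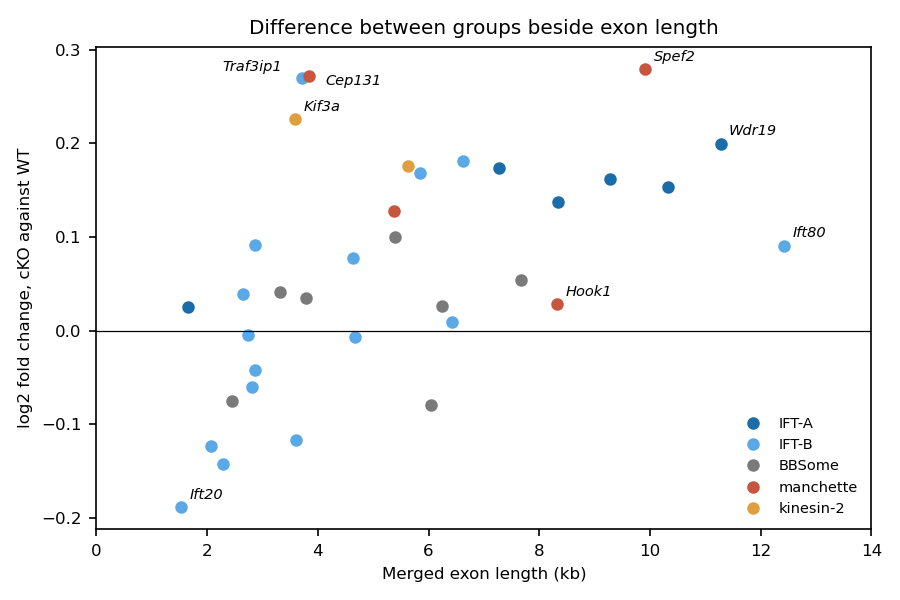
The log2 fold change of each of the 35 genes in cKO against WT beside its merged exon length in kilobases, with colours for the complexes. Members up to 4 kb lie on both sides of zero, those over 8 kb lie above it, and Traf3ip1, Cep131 and Kif3a stand above other members of like length.

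The cell types of the testis were read from marker lists. Round spermatid markers, 8 of 8 with reads, summed to 1671 to 1723 CPM in WT and 1485 to 1623 CPM in cKO, without overlap. The summed levels of the spermatogonia, spermatocyte, elongating spermatid, Sertoli, Leydig, peritubular myoid, macrophage and blood lists overlapped between groups. A sum follows its most abundant markers. Above zero by log2 fold change stood 6 of 8 spermatogonia, 4 of 9 spermatocyte, 3 of 8 elongating and 1 of 8 round spermatid markers. So did 7 of 8 Sertoli, 1 of 6 Leydig, 1 of 5 myoid, 1 of 6 macrophage and 1 of 4 blood markers. None of these markers passed the edgeR threshold. The marker lists were not matched to all genes by exon length. Rete testis and epididymis, which contain other ciliated or adjoining cells, gave 4.99 to 6.06 CPM in WT and 4.29 to 5.97 CPM in cKO over 11 markers, 10 of which had reads. Rnase10 gave most of it, 4.80 CPM on average in WT, and Lcn8 was at 0. The part of cell composition in the members' values was not tested.

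Genes of the same pathways outside the 35 were read from lists chosen by function. Of 54 other IFT, BBSome, motor and manchette genes, 0 passed the edgeR threshold, against 0.0183% of all genes tested. At an unadjusted p under 0.05, 6 were higher and 4 lower. Together they made up 18.5% of the list, against 13.9% of all genes tested. Their median log2 fold change was 0.060. Among other IFT genes, Ttc21a, the paralogue of Ttc21b, had 226, 207 and 199.6 CPM in WT and 237, 272 and 237 CPM in cKO, without overlap (log2 fold change 0.24, edgeR adjusted p 0.290). Tulp3 stood at 0.26 and Rabl2, a GTPase that binds IFT-B, at -0.11.

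Among 14 motor genes, Dync2h1, the heavy chain of the return motor, had 152, 172 and 145 CPM in WT and 146, 276 and 221 CPM in cKO. The difference was large in 2 cKO libraries, while cKO 1 lay within the WT range (log2 fold change 0.45, SE 0.17, edgeR adjusted p 0.307). Without cKO 1 it passed, at 0.67 (edgeR adjusted p 0.00639), in the fit that called 628 of 22255 genes (2.82%). Dync2h1 has 16348 bases of merged exon, and the median log2 fold change of all genes over 8 kb was 0.13. The part of length in the difference of Dync2h1 was not tested. Wdr60, an intermediate chain of that motor, stood at 0.22 and the light chain Dynlt3 at -0.24, both without overlap between the groups and with adjusted p of 0.304 and 0.305.

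Of 26 other manchette genes 22 stood above zero, with a median of 0.088. Over all genes tested 11102 of 21902 did. The share was 65.4% of all genes of 4 to 8 kb and 80.6% of those over 8 kb. This list was not matched to all genes by length. Mns1 and Ccdc146, tail proteins, stood at 0.24 and 0.25, and Meig1, which recruits cargo to the manchette, at -0.23 with 1201, 1482 and 1314 CPM in WT and 1198, 1044 and 1172 CPM in cKO. The edgeR adjusted p of these 3 genes ran from 0.288 to 0.307. Of 9 other BBSome genes, 6 stood below zero, beside 49.3% of all genes tested. Among the 6 were Bbip1, a BBSome subunit, at -0.16, and the chaperonin-like Mkks and Bbs10 at -0.16 and -0.095.

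Of 10 regulators of ciliary genes, 0 passed. Rfx2, an RFX factor that binds the X-box and is needed for spermatid tails, had 321, 300 and 304 CPM in WT and 327, 387 and 340 CPM in cKO, without overlap (log2 fold change 0.19, edgeR adjusted p 0.315). Foxj1, a regulator of motile cilia, stood at 0.15 without overlap and Rfx7 at 0.30 with overlap (adjusted p 0.387 and 0.305). The highest library was cKO 2 for Rfx2 and Rfx7 and cKO 1 for Foxj1.

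Of the 35 members, 29 have no exon that overlaps an exon of another annotated gene. By sequence, 20 have under 1% of their 31-base words in other genes, and 3 have over 10%: Ttc30b, Cluap1 and Hspb11 (10.5%). Ift57, Ift88, Cluap1, Bbs4 and Hook1 overlap exons on the opposite strand, and Cluap1 and Cep131 exons on the same strand. Reads on the other strand made up 0.0294% to 3.62% of a member's strand-assigned reads. The members lie on 15 chromosomes, and none is on the X.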

How the data were processed

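The authors deposited raw read counts per gene, 1 table for each of 6 libraries, made with STAR on mm10; HTSeq and DESeq2 are also named, per the submitters' processing notes. Versions, annotation release, filters and library kit are not given in the sources used here. Reads were single-end, 75 bp, per the labels' protocols. Opposite-strand counts, 96.0% to 96.2% of the strand columns, were used. Lines for reads in no single gene held 14.8% to 16.7% of the reads and were left out. Only uniquely mapped reads are counted in this layout, so near-identical copies lose reads. Symbols, exon lengths and positions came from GENCODE M21 (GRCm38, the assembly called mm10), which matched 52147 of 53700 identifiers.

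Counts were tested with edgeR 4.0.16 in R 4.3.3: filterByExpr (minimum count 10), TMM scaling, a quasi-likelihood F test of the 2 groups, Benjamini-Hochberg adjustment over 21902 genes, threshold 0.05. Standard errors were derived from F. Deviations used log2(CPM + 0.5). The procedure was tested on simulated counts, drawn for each gene alone with no shift shared by the genes of a library. That run cannot show how the test behaves with such a shift. The alternatives were DESeq2 1.42.0, other scalings, filters and strands, a replicate block, robust fitting, a loess correction for GC and length (span 0.3), a threshold of 0.1 and each library left out. The members and lists were chosen with earlier results of these data known. Named were all members, Msl3, and the 3 other genes per list with the lowest p; Ttc30a1, Ttc30a2 and Kifap3 were added as copies or partners of members.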

Additional observations from a re-analysis of the deposited data

How the results depend on the processing

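The signs of 24 of the 35 members held under all 15 alternatives and those of 11 did not: 28 of 525 member values had the opposite sign, none of them called. With library totals alone these were Ift43 (-0.00209), Ift46 (-0.018) and Bbs9 (-0.00141), and without a filter on low counts Ift46 (-0.000115). With the GC and exon length correction they were Ift122 (-0.00254), Ift46 (-0.063), Ttc30b (0.044), Bbs1 (-0.054), Bbs5 (0.016), Bbs9 (-0.030) and Hook1 (-0.00577). With 1 library left out at a time, log2 fold changes ran from -0.028 to 0.084 for Ift74, -0.023 to 0.013 for Ttc26, -0.019 to 0.033 for Ift46, -0.15 to 0.10 for Ttc30b, -0.019 to 0.081 for Bbs9, -0.00376 to 0.064 for Hook1, -0.016 to 0.060 for Ift43 and -0.13 to 0.00994 for Ift27. The cause was not tested.

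The count of members called, 0, was 1 without the filter (Spef2) and 0 to 2 with 1 library left out. For the other pathway genes, 0, it was 3 (Dync2h1, Dynlt1b and Spag17) and 0 to 3 (Dync2h1, Spag17 and Ccdc146, without cKO 1); Dynlt1b and Spag17 are named after their values were seen. The count over all genes, 4, was 757 without the filter, 2 with unstranded counts, 209 of 11711 with DESeq2 and 1 to 628 with a library left out, 628 without cKO 1 and 116 without WT 1. The members' median of 0.054 was 0.026 with library totals alone, where the median over all genes was -0.024, and ran from 0.035 without cKO 2 to 0.10 without cKO 3 when 1 library was left out. GTNNCC alone, on either strand, was in 96.7% of the members' windows and 88.2% of all. The deviations of same-numbered WT and cKO libraries correlated across genes at 0.38, 0.26 and -0.071. Replicate numbers were not treated as pairs because the labels do not say that they mark a shared litter or day. With a replicate block 49 genes and 0 members were called (lowest member adjusted p 0.0859), and Ttc30b stood at 0.00924. In that fit 12 members had an unadjusted edgeR p under 0.05, instead of 10. The share over all genes was 18.7%, instead of 13.9%. Msl3 was uncalled under every setting run. Every member had at least 264 reads in each library.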
